A study of Mus musculus with 6 samples.

Results

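The 34 genes described here encode the enzymes that copy DNA in S phase, the factors that prepare origins for it, and the cyclin E and E2F proteins that control entry into S phase. They were taken by name from the 56953 genes of the count tables, and all 34 were found and were among the 15591 genes with enough counts to be tested. Expression was measured by RNA sequencing in natural killer (NK) cells, lymphocytes that kill virus-infected cells and tumor cells. The cells came from the spleen of wild-type C57BL/6 mice and were cultured for 7 days with recombinant human interleukin-2 (1700 U/ml), a growth factor that drives NK cells to divide, under 5% CO2. The normoxia group was kept at 20% oxygen and the hypoxia group at 1% oxygen, with 3 libraries each, and the age of the mice and the number of mice behind a library are not stated in the labels. The labels call the libraries biological replicates and do not say if each had its own mouse or culture, so p-values here reflect only how far these libraries spread, which may be technical.

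Replication is prepared in G1, when the origin recognition complex, CDC6 and CDT1 load the ring of MCM2 to MCM7 onto DNA. At the start of S phase CDC45 and the GINS complex join the ring and turn it into the active helicase, DNA polymerases follow it, and PCNA clamps them to the template. The genes for these proteins, for the enzymes that supply deoxynucleotides and for cyclin E are classic targets of the E2F transcription factors, which the retinoblastoma protein holds in check until cyclin-dependent kinases release them. In NK cells this program is known to be switched on by interleukin-2 and interleukin-15.

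Some of these genes hold a match to the E2F site in their promoters. The 250 bases before the start of Mcm5, Mcm6, Pola1 and E2f7 are shown because they hold such a site, with the matches in capitals, and those of Tyms because it was the member called lower and held none. In Tyms the capitals mark a match to the core of the site bound by the hypoxia-inducible factor HIF. Whether HIF or another factor binds there was not tested. The stretches of Mcm6 and Pola1 hold this core too, left in lower case. All are written 5′ to 3′ on the strand of the gene, from RefSeq on GRCm38.p6 (an earlier build than the GRCm39 named for these data), and none of these stretches overlaps an exon of a coding transcript of its own gene in GENCODE M21.
Mcm5, chr8:75109259-75109508, plus strand: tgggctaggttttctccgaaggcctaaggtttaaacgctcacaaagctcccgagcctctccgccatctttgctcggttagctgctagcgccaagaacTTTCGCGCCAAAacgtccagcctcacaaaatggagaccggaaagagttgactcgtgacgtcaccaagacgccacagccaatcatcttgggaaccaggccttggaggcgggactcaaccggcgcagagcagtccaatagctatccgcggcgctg
Mcm6, chr1:128359706-128359955, minus strand: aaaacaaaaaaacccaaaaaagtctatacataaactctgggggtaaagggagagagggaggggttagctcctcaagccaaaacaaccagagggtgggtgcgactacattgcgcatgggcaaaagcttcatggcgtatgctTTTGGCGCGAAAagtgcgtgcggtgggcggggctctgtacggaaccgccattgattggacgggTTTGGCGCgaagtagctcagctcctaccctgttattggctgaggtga
Pola1, chrX:93632156-93632405, minus strand: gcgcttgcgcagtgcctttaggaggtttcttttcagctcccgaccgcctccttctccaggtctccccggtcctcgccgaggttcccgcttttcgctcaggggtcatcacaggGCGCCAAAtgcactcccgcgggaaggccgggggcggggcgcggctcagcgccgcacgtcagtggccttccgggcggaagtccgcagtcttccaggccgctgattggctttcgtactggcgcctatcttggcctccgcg
E2f7, chr10:110745189-110745438, plus strand: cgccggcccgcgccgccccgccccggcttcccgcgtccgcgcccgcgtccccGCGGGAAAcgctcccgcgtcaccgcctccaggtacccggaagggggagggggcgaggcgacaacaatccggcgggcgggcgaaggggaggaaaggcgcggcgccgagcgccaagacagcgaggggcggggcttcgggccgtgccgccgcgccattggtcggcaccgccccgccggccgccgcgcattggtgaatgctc
Tyms, chr5:30073626-30073875, minus strand: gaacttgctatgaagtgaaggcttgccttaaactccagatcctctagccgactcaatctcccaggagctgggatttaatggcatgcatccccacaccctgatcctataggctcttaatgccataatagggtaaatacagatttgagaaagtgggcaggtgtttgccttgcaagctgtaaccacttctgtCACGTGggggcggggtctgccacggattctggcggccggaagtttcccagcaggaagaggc

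RefSeq promoter windows of 300 bases (250 before to 50 after the start) were found for 28 of the 34 genes. Those of Mcm4, Gins1, Gins2, Gins4, Pole and Ccne2 were not analysed here. The E2F motif was searched on both strands as TTTCCCGC, TTTGGCGC, TTTCGCGC and TTTGCCGC, and 12 of the 28 genes (42.9%) held at least 1 match, against 4.65% of the 10557 tested genes with a window and 2.60% of all 27025 genes in the table. The 12 were Mcm3, Mcm5, Mcm6, Mcm7, Cdc6, Cdt1, Gins3, Pola1, Lig1, Uhrf1, E2f2 and E2f7. In Mcm5 and Mcm6 a pair of matches on opposite strands overlaps in a single run of capitals, 153 and 110 bases before the start. The CCAAT box, searched as CCAAT, was found in 18 of the 28 (64.3%, against 42.8% of tested genes), and the CHR element of mitotic genes, searched as TTTGAA and TTTAAA, in 11 (39.3% against 23.1%). The HIF core, searched as ACGTG and GCGTG and added after the expression values were seen, was found in 17 (60.7% against 66.0%). It overlaps on both strands in the CACGTG of Tyms. The median GC content of the windows was 59.2% for these genes and 60.3% for tested genes. The window of E2f1 lies wholly inside exons of its own coding transcripts in GENCODE M21, so it does not show the main start of that gene. The 250 upstream bases of the Mcm7 window with its E2F matches lie in exons of Mcm7 itself too, and overlap an exon of another gene, Ap4m1. Those of the Lig1 window with its match overlap an exon of Zswim9, a neighbouring gene. Of the upstream bases of Gins3 and Cdc6, 106 and 81 lie in their own exons. In Mcm3, Cdt1, Lig1 and E2f2 the E2F matches lie only in the 50 bases after the start.

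**Figure D1:**
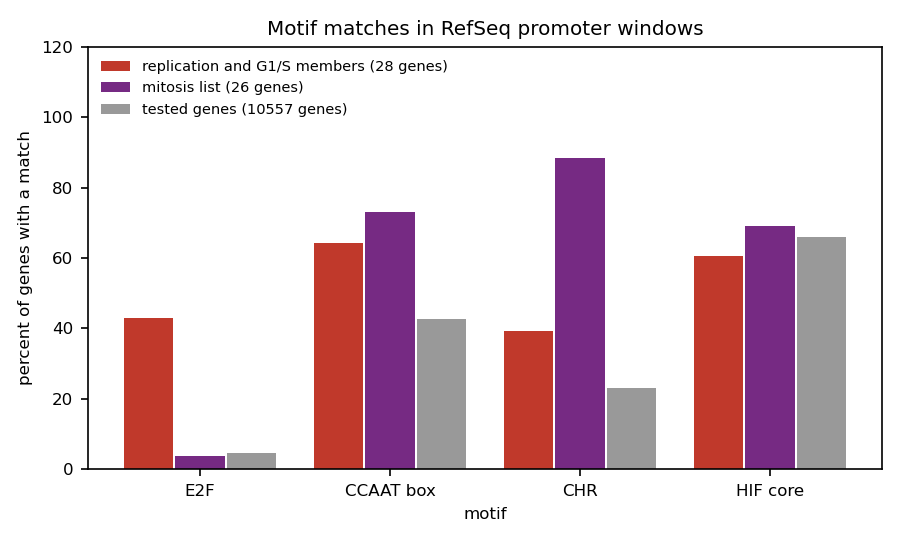
Percent of genes (vertical axis) with at least 1 match to each motif (horizontal axis) in RefSeq windows of 300 bases, for the replication and G1/S genes (28 with a window), a list of mitosis genes (26) and all tested genes (10557). The E2F motif was found in 42.9% of the replication and G1/S genes and 3.85% of the mitosis genes, and the CHR element in 39.3% and 88.5%.

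Most of the replication program differed between 1% and 20% oxygen by less than the spread between libraries. The gene of cyclin E2, Ccne2, was 1.97-fold higher in hypoxia, E2f1 was 1.36-fold higher, and the thymidylate synthase gene Tyms was 1.24-fold lower. In bulk libraries, fewer cells in S phase and less of an mRNA per cell cannot be told apart. No other member was called, where called means an adjusted p under 0.05 in the quasi-likelihood test of edgeR with Benjamini-Hochberg adjustment over all tested genes. Of the 34 genes 2 were called higher, where 11.2% of all tested genes were, and 1 was called lower, where 9.72% were. Together 8.82% of these genes were called, against 20.9% of all tested genes. At an unadjusted p under 0.05, 3 were higher and 3 lower. The share of all tested genes at that threshold was not counted but is at least the 20.9% called after adjustment. Their median log2 fold change was 0.03, against -0.0052 for all tested genes, with 21 above and 13 below 0. In 6 of the 34 (17.6%) the groups did not overlap, against 38.3% of tested genes.

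The count of calls depended on single libraries and on how the libraries were matched. Libraries with the same replicate number deviated together, a pairing that was read from these data and is not stated in the labels. With that number as a block in the edgeR fit (the replicate block) 5 members were called higher and 3 lower. Of all tested genes 19.2% and 20.0% were (39.2% in either direction). The members added were Cdc6, Gins3 and E2f7 as higher and Cdt1 and Pola1 as lower. The replicate 1 libraries of both conditions stood apart from the others on the second principal component of all tested genes. Without both of them Ccne2 (log2 fold change 0.86), E2f1 (0.36) and Tyms (-0.35) were called, Cdt1 and Pola1 were called lower as well, and 21 of the 34 genes were below 0. Without normoxia replicate 3, 6 were called higher (Ccne1, Ccne2, Cdc6, E2f1, E2f7 and Gins3) and Tyms was not called. Tyms was not called without hypoxia replicate 1, 2 or 3 either, which left 0 members called lower, nor without normoxia replicate 1, where Cdt1 and Pola1 were. Scaling by library size alone, in place of the composition factors used here (TMM), left 27 of the 34 above 0 and 7 below, and among calls over all tested genes 70.5% were then higher in place of 53.5%.

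**Figure D2:**
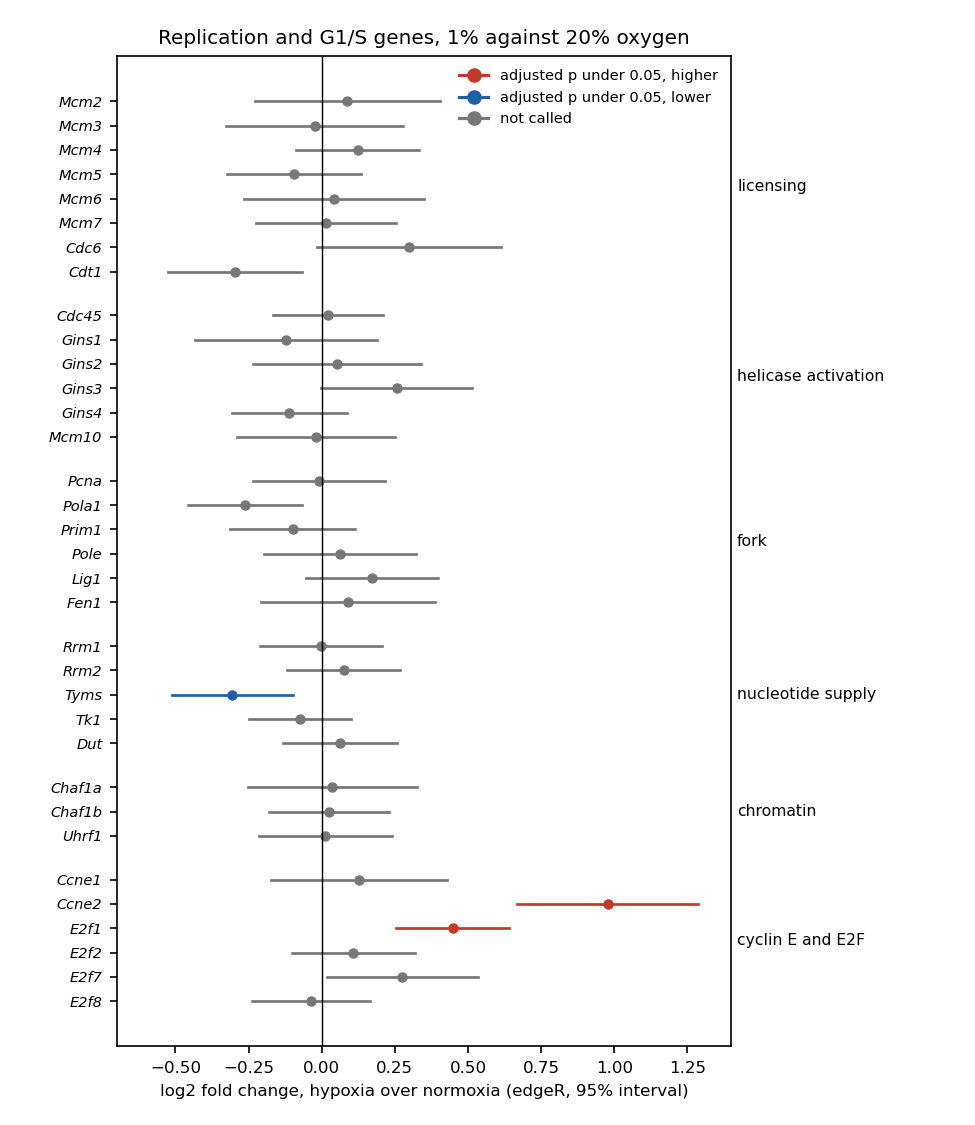
Log2 fold change of each gene, hypoxia over normoxia (horizontal axis, points), with its 95% interval (lines, not adjusted for the number of genes), grouped by role, from 3 libraries per condition. Ccne2 (0.98) and E2f1 (0.45) lie to the right of 0 and Tyms (-0.31) to the left, and the other 31 genes were not called.

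None of the 6 genes of the replicative helicase ring was called. Levels here are CPM scaled with TMM, that is, counts of a gene relative to the scaled library total. Mcm2 stood at 190, 214 and 230 CPM in the hypoxia libraries and at 159, 194 and 244 CPM in the normoxia libraries. Its groups overlapped fully, with normoxia giving both the lowest and the highest value. Mcm6, the most abundant of the ring subunits in CPM, stood at 341, 389 and 422 CPM in hypoxia and at 310, 355 and 455 CPM in normoxia. The log2 fold changes of Mcm2 to Mcm7 lay between -0.09 (Mcm5, SE 0.10) and 0.12 (Mcm4, SE 0.09), with edgeR's adjusted p from 0.41 to 0.95. The 95% interval of the hypoxia over normoxia ratio was 0.853 to 1.32 for Mcm2, 0.797 to 1.21 for Mcm3, 0.941 to 1.26 for Mcm4 and 0.799 to 1.10 for Mcm5. For Mcm6 it was 0.833 to 1.27 and for Mcm7 0.856 to 1.19. Per kilobase of the longest coding transcript in GENCODE M21, the normoxia level of the ring subunits ran from 59.0 CPM per kb (Mcm2) through 62.0 (Mcm4), 81.1 (Mcm5), 81.5 (Mcm7) and 85.7 (Mcm6) to 90.8 (Mcm3). Neighbours in this order differed by less than the SD of either over the normoxia libraries, except that the step from Mcm4 to Mcm5 exceeded both SDs (7.61 and 10.9 CPM per kb). All 6 genes rose in the same order of normoxia libraries, so these SDs include shared spread and do not measure differences within a library.

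The 2 loaders of the ring had fold changes of opposite sign. CDC6 is the ATPase that brings the ring to the origin, and CDT1 is its partner that is destroyed in S phase to stop a second round of loading. Cdc6 stood at 71.9, 72.1 and 79.3 CPM in hypoxia and at 50.4, 54.2 and 77.1 CPM in normoxia. Normoxia replicates 1 and 2 lay below every hypoxia library, while normoxia replicate 3 lay among them. The log2 fold change was 0.30 (SE 0.14, edgeR's adjusted p = 0.17), and the gene was called with the replicate block (edgeR's adjusted p = 0.0064) and without normoxia replicate 3 (log2 fold change 0.51, edgeR's adjusted p = 0.0038). Cdt1 stood at 42.2, 43.2 and 40.1 CPM in hypoxia and at 44.5, 50.0 and 59.4 CPM in normoxia, groups that did not overlap. Its log2 fold change was -0.30 (SE 0.10, edgeR's adjusted p = 0.069, and 0.013 with the replicate block). Without normoxia replicate 1 Cdt1 passed (log2 fold change -0.39, edgeR's adjusted p = 0.012), and without normoxia replicate 3 it had a log2 fold change of -0.18 (edgeR's adjusted p = 0.19).

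Among the 6 members that switch the loaded ring on, Gins3 was the only one whose groups did not overlap (16.7%, against 38.3% of tested genes). GINS is a complex of 4 small proteins that ties CDC45 to the ring. Gins3 stood at 25.4, 24.4 and 25.1 CPM in hypoxia and at 17.2, 21.3 and 24.2 CPM in normoxia, so the highest normoxia library came close to the lowest hypoxia library. The log2 fold change was 0.26 (SE 0.12), with an edgeR's adjusted p of 0.15, of 0.028 with the replicate block and of 0.043 without normoxia replicate 3. Its partners Gins1, Gins2 and Gins4 had log2 fold changes of -0.12, 0.05 and -0.11 (SE 0.14, 0.13 and 0.09, edgeR's adjusted p from 0.42 to 0.82). Cdc45 stood at 80.0, 81.7 and 79.6 CPM in hypoxia and at 72.0, 76.9 and 88.7 CPM in normoxia (log2 fold change 0.02, SE 0.08, edgeR's adjusted p = 0.89). Hypoxia libraries of Cdc45 thus sat inside the normoxia range. Mcm10, which helps the helicase to start and binds polymerase alpha, had a log2 fold change of -0.02 with SE 0.12 (edgeR's adjusted p = 0.93).

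Among the members that act at the fork, Pola1 had the largest difference. It encodes the catalytic subunit of DNA polymerase alpha, which together with primase lays down the primers of each new strand. Pola1 stood at 79.8, 80.5 and 82.1 CPM in hypoxia and at 86.4, 95.7 and 108 CPM in normoxia, with no overlap. Its log2 fold change was -0.26 (SE 0.09, edgeR's adjusted p = 0.060, and 0.0043 with the replicate block). It passed without normoxia replicate 1 (edgeR's adjusted p = 0.011) and had a log2 fold change of -0.17 without normoxia replicate 3 (edgeR's adjusted p = 0.18). The primase gene Prim1 had a log2 fold change of -0.10 (SE 0.10), and Pole, the gene of the leading-strand polymerase, 0.06 (SE 0.12). Pcna, the sliding clamp gene and the most abundant member per kilobase (308 CPM per kb in normoxia and 306 in hypoxia), stood at 472, 447 and 475 CPM in hypoxia and at 436, 426 and 541 CPM in normoxia. Its log2 fold change was -0.0094 (SE 0.10), with a 95% interval of the ratio from 0.85 to 1.16. Lig1, the ligase that joins Okazaki fragments, and Fen1, the nuclease that trims their flaps, had log2 fold changes of 0.17 (SE 0.10) and 0.09 (SE 0.13). None of these 5 genes was called, with edgeR's adjusted p from 0.27 to 0.96. A processed copy of Pcna, Pcna-ps2, held 0.114 to 0.346 CPM in the 6 libraries.

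Of the 5 members of deoxynucleotide supply, Tyms was the only one called. Thymidylate synthase makes the thymidine nucleotide that DNA needs and RNA does not. Tyms stood at 60.4, 50.7 and 58.3 CPM in hypoxia and at 70.2, 63.3 and 75.8 CPM in normoxia. Every hypoxia library lay below every normoxia library, and within the same-numbered pairs the log2 ratios were -0.22, -0.32 and -0.38. The fall was 0.31 on the log2 scale (log2 fold change -0.31, SE 0.09, edgeR's adjusted p = 0.041, and 0.00062 with the replicate block). It did not pass without hypoxia replicate 1, 2 or 3 (edgeR's adjusted p = 0.051, 0.20 and 0.089), without normoxia replicate 1 or 3 (0.058 and 0.12), or with scaling by library size alone (0.10). The gene of thymidine kinase, Tk1, which salvages thymidine for the same nucleotide pool, stood at 127, 119 and 118 CPM in hypoxia and at 119, 125 and 138 CPM in normoxia (log2 fold change -0.07, SE 0.08, edgeR's adjusted p = 0.56). Its groups overlapped. Ribonucleotide reductase, which turns ribonucleotides into deoxynucleotides, has a large subunit, Rrm1, and a small subunit, Rrm2. Rrm1 stood at 413, 426 and 431 CPM in hypoxia and at 381, 413 and 479 CPM in normoxia, and Rrm2 at 382, 373 and 373 CPM and at 341, 331 and 397 CPM. The 95% intervals of their ratios were 0.864 to 1.15 and 0.922 to 1.20. Dut, whose product removes dUTP, had a log2 fold change of 0.06 (SE 0.09). The ratio of Tyms to Tk1 was 0.477, 0.428 and 0.495 in the hypoxia libraries and 0.589, 0.506 and 0.548 in the normoxia libraries.

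The 3 genes of chromatin replication had small differences. Chaf1a and Chaf1b encode subunits of the chaperone CAF-1, which places histones on new DNA, and Uhrf1 the protein that brings the maintenance methyltransferase to it. Uhrf1 stood at 242, 240 and 244 CPM in hypoxia and at 211, 230 and 279 CPM in normoxia. The hypoxia libraries were nearly equal, and normoxia spread on both sides of them. Log2 fold changes were 0.04 (SE 0.13), 0.03 (SE 0.09) and 0.01 (SE 0.10) for Chaf1a, Chaf1b and Uhrf1, with edgeR's adjusted p from 0.88 to 0.95.

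The clearest differences were in the control of the G1/S transition. Cyclin E2 is a regulatory subunit of the kinase CDK2, which fires the transition, and E2F1 is an activating transcription factor of the program. Ccne2 stood at 66.5, 56.5 and 63.5 CPM in hypoxia and at 28.8, 26.4 and 39.5 CPM in normoxia. The lowest hypoxia library lay well above the highest normoxia library. The log2 fold change was 0.98 (SE 0.14, edgeR's adjusted p = 0.0011), from 31.6 ± 6.95 to 62.2 ± 5.11 CPM (SD, n = 3). Within the same-numbered pairs it was 1.21, 1.10 and 0.69. E2f1 stood at 69.4, 64.6 and 65.6 CPM in hypoxia and at 45.0, 46.6 and 54.8 CPM in normoxia, again with no overlap. Its log2 fold change was 0.45 (SE 0.09, edgeR's adjusted p = 0.0055), with 0.63, 0.47 and 0.26 in the pairs. Both genes were called under each of the 14 alternative settings tried, with adjusted p up to 0.0077 for Ccne2 and 0.032 for E2f1.

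Their closest relatives in the list did not follow them to the same extent. Ccne1, the gene of cyclin E1, stood at 49.2, 53.4 and 47.7 CPM in hypoxia and at 38.7, 41.5 and 57.5 CPM in normoxia. Normoxia replicate 3 gave the highest value and the other normoxia libraries the lowest ones. The log2 fold change of Ccne1 was 0.13 (SE 0.13, edgeR's adjusted p = 0.56), and without normoxia replicate 3 it was 0.32 (edgeR's adjusted p = 0.032). The ratio of Ccne2 to Ccne1 counts was 1.35, 1.06 and 1.33 in hypoxia and 0.744, 0.637 and 0.686 in normoxia, a log2 difference of 0.85. The ratio of E2f1 to E2f2, which encodes a second activator, was 1.45, 1.58 and 1.74 in hypoxia and 1.21, 1.19 and 1.34 in normoxia, a log2 difference of 0.35. For these ratios and that of Tyms to Tk1, which were chosen after their values were seen, the groups did not overlap, and the exact two-sided permutation test over libraries gave p = 0.10 for each, the smallest it can give with 3 against 3. Adjusted over the 3 ratios by Benjamini-Hochberg it remained 0.10. Per kilobase of transcript, the level of Ccne2 was 10.5 CPM per kb in normoxia, below the 22.9 of Ccne1, and 20.7 in hypoxia, where Ccne1 stood at 25.1.

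E2F7 and E2F8 are repressors that E2F1 itself induces and that end the program in late S phase. E2f7 stood at 39.1, 37.8 and 34.1 CPM in hypoxia and at 25.8, 30.2 and 35.7 CPM in normoxia, with the highest normoxia library inside the hypoxia range. Its log2 fold change was 0.27 (SE 0.12, edgeR's adjusted p = 0.13), with an adjusted p of 0.037 with the replicate block and 0.027 without normoxia replicate 3. E2f8 stood at 76.4, 69.2 and 60.1 CPM in hypoxia and at 69.9, 68.1 and 72.9 CPM in normoxia (log2 fold change -0.04, SE 0.09, edgeR's adjusted p = 0.83). E2f2 had a log2 fold change of 0.11 with SE 0.09 (edgeR's adjusted p = 0.47).

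**Figure D3:**
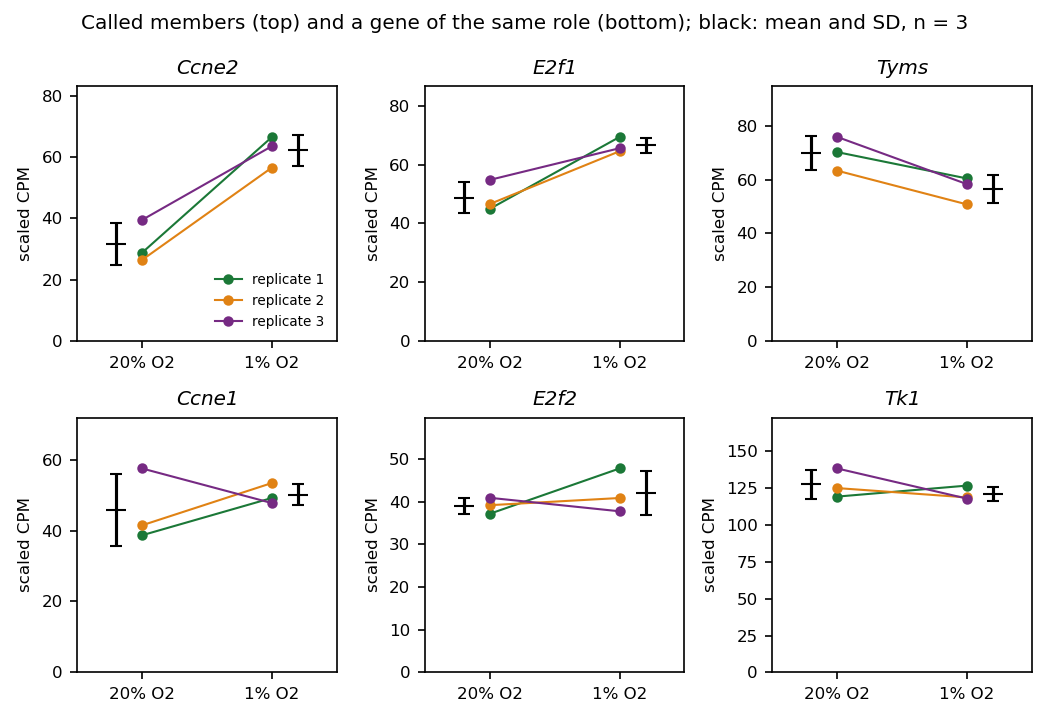
Scaled CPM (vertical axes, from 0) of the called genes Ccne2, E2f1 and Tyms and of a gene of the same role for each, Ccne1, E2f2 and Tk1, at 20% and 1% oxygen. Colored points joined by lines are libraries with the same replicate number, and black bars are the mean and SD of 3 libraries. All 3 lines of Ccne2 and E2f1 rise and all 3 of Tyms fall, while those of Ccne1, E2f2 and Tk1 go both ways.

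The normoxia libraries differed from each other in nearly the whole program. Normoxia replicate 3 had the highest level of the normoxia libraries in 34 of the 34 genes, where this held for 34% of the 7698 tested genes whose mean level was at or above that of the lowest member. It had the highest level of all 6 libraries in 26 of 34. Normoxia replicate 1 had the lowest level of all 6 libraries in 25 of 34, against 15.2% of those genes. The hypoxia libraries lay close together, with a median coefficient of variation of 4.62% over the 34 genes against 14.2% in normoxia, where the genes of comparable level had 5.80% and 7.19%. The standard deviation was larger in normoxia for 32 of the 34 genes, against 65.5% of genes of comparable level. Summed over the 34 genes, the level was 4821, 4899 and 5057 CPM in hypoxia and 4250, 4614 and 5572 CPM in normoxia, so the hypoxia sums lay between the normoxia sums.

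The direction of the difference changed with the pair of libraries. In the pair numbered 1, 30 of the 34 genes were higher in hypoxia, with a median log2 ratio of 0.17. In the pair numbered 2, 27 were higher (median 0.07). In the pair numbered 3, 30 were lower (median -0.15). Without normoxia replicate 3 the median log2 fold change of the 34 genes was 0.14 with 28 above 0, and without normoxia replicate 1 it was -0.06 with 23 below 0. Across the 6 libraries the log2 levels of the members correlated with a median Pearson r of 0.72 over 561 pairs of genes, from -0.61 to 0.99. These pairs share the same 6 libraries, their scaling and the difference between the normoxia libraries, so the value is a description.

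**Figure D4:**
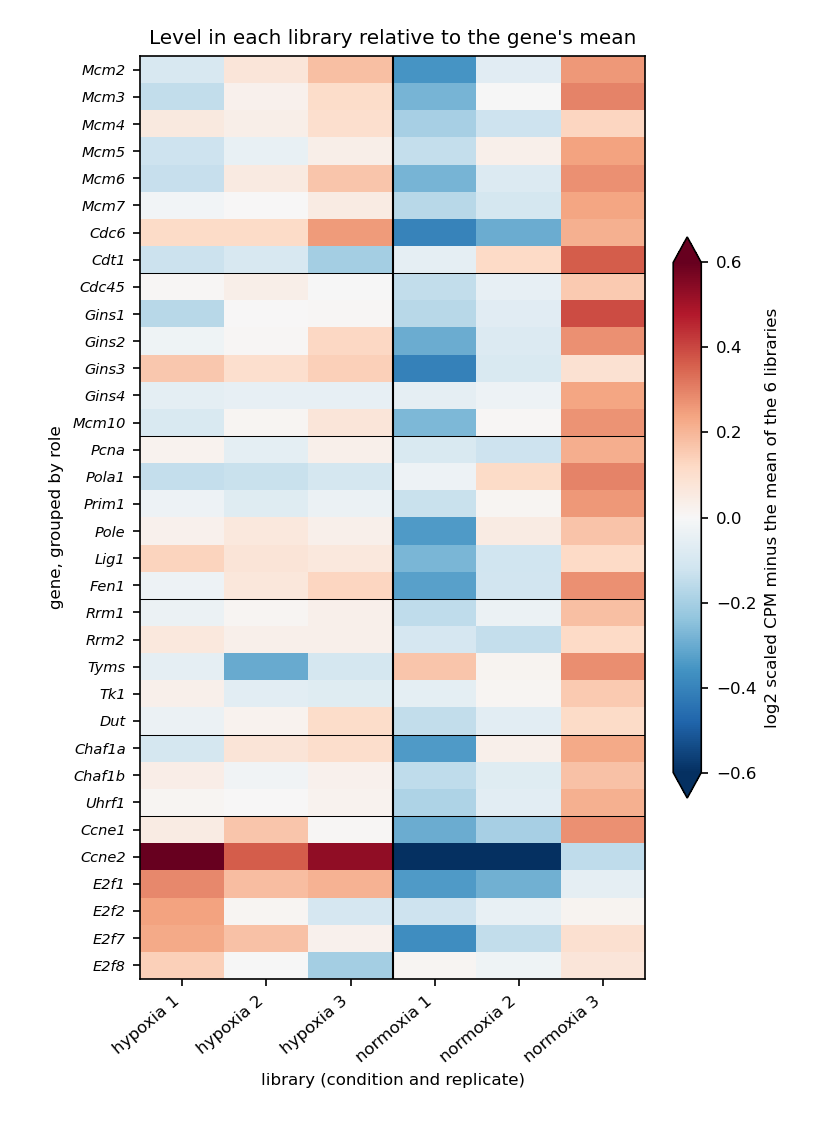
Log2 scaled CPM of each gene (rows, grouped by role) in each of the 6 libraries (columns), as the difference from the mean of that gene over the libraries, with red above and blue below it and the color scale ending at 0.6 on either side. The column of normoxia replicate 3 is red for 32 of the 34 genes and that of normoxia replicate 1 is blue for 32. Ccne2 and E2f1 are above their mean in every hypoxia library, and so are members that were not called, among them Cdc6, Gins3 and Mcm4.

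The other genes of the pathway, 115 in 8 lists, had 6 called higher and 6 lower (10.4% called, against 20.9% of all tested genes) and a median log2 fold change of -0.0073. With the replicate block 21 were higher and 19 lower (39.2% of all tested genes were then called). Of 16 genes of origin recognition and firing, Mtbp, whose product works with TICRR in origin firing, was called lower (52.2 ± 4.73 to 41.8 ± 1.05 CPM, log2 fold change -0.32, SE 0.08, edgeR's adjusted p = 0.019). The most abundant, Topbp1, stood at 245 CPM in both groups. Of 27 other fork genes, Rnaseh2a, a subunit of the nuclease that removes RNA from DNA, was called lower (log2 fold change -0.28, SE 0.08, edgeR's adjusted p = 0.041). The single-strand binding protein gene Rpa1 had 428 ± 16.4 CPM at 1% oxygen and 384 ± 19.5 CPM at 20% (edgeR's adjusted p = 0.18, and 0.026 with the replicate block).

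Nucleotide genes outside the list moved in both directions. Of 8 further genes of deoxynucleotide supply, Dck, the deoxycytidine kinase gene, was called higher (78.7 ± 9.71 to 107 ± 18.0 CPM, log2 fold change 0.45, SE 0.13, edgeR's adjusted p = 0.034). Samhd1, the gene of a dNTP hydrolase, had a log2 fold change of -0.12 (SE 0.10). Of 12 genes of purine and pyrimidine synthesis, Impdh2, which catalyses the committed step to guanine nucleotides, was called lower (245 ± 20.6 to 195 ± 16.8 CPM, log2 fold change -0.33, SE 0.09, edgeR's adjusted p = 0.030). Paics, of the purine pathway, had a log2 fold change of -0.17 with SE 0.08 (edgeR's adjusted p = 0.17, and 0.019 under the replicate block). Of 10 S phase chromatin genes, the histone chaperone gene Asf1a was called lower (23.8 ± 1.24 to 18.8 ± 1.91 CPM, edgeR's adjusted p = 0.027), and Pclaf, a PCNA partner, had a log2 fold change of 0.09 (SE 0.08). Of 12 genes of replication stress and repair, the helicase gene Blm was called lower (59.4 ± 4.66 to 48.5 ± 2.55 CPM, edgeR's adjusted p = 0.029), and Atr, the kinase that senses stalled forks, had a log2 fold change of -0.15 with SE 0.07 (edgeR's adjusted p = 0.15, and 0.028 with the replicate block).

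Regulators upstream of cyclin E held the largest fold changes of the pathway, in Ccnd1, Cdkn2b and Cdkn1c, whose levels lay below those of every member. Of 15 G1 cyclins, kinases and activators 3 were called higher and 0 lower (20% called, against 20.9% of all tested genes). Ccnd1, the gene of cyclin D1, rose from a low level of 1.38 ± 0.337 to 3.63 ± 0.656 CPM (log2 fold change 1.39, SE 0.22, edgeR's adjusted p = 0.0018). Tfdp2, the gene of a partner of E2F proteins, and Skp2, the gene of the ubiquitin ligase subunit that removes p27, rose by log2 fold changes of 0.40 (SE 0.10) and 0.41 (SE 0.10). The abundant G1 genes were not called. Ccnd2 gave 401, 403 and 428 CPM at 1% oxygen and 427, 412 and 416 CPM at 20%, and the log2 fold changes of Ccnd3, Cdk4, Cdk6 and Myc were -0.04, -0.07, -0.0016 and -0.08 (edgeR's adjusted p from 0.62 to 0.99).

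Of 15 genes listed as inhibitors of the transition or regulators of them, 2 were called higher (Dtl and Cdkn1c) and 1 lower (Cdkn2b). That is 20% called, against 20.9% of all tested genes. Cdkn2b, the gene of the kinase inhibitor p15, stood at 5.64, 4.95 and 6.12 CPM in hypoxia and at 13.6, 12.9 and 12.9 CPM in normoxia, a fall of 2.36-fold (log2 fold change -1.24, SE 0.11, edgeR's adjusted p = 6.0e-05). Every hypoxia library lay below every normoxia library. Dtl, whose product is no inhibitor itself but directs CDT1 and the inhibitor p21 to destruction in S phase, rose from 69.9 ± 10.2 to 89.7 ± 3.01 CPM (edgeR's adjusted p = 0.029). Cdkn1c, the p57 gene, was called higher at levels under 0.3 CPM in every library (edgeR's adjusted p = 0.023). Cdkn1a, the p21 gene, stood at 250, 184 and 172 CPM in hypoxia and at 228, 140 and 142 CPM in normoxia. The replicate 1 libraries were the highest of both groups, and its adjusted p was 0.43 without and 0.0036 with the replicate block, and 0.025 without normoxia replicate 1. Cdkn1b, the p27 gene, differed by 0.08 on the log2 scale (SE 0.09), and Rb1 one of 0.31 (SE 0.12, edgeR's adjusted p = 0.092, 0.0015 with the replicate block and 0.0033 without normoxia replicate 1).

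Of the 12 calls in these 8 lists, Ccnd1 and Cdkn2b were made under each of the 14 alternatives and the other 10 were not. Still called were 2, 3 and 6 of the 12 without hypoxia replicate 1, 2 and 3, and 10, 3 and 6 without normoxia replicate 1, 2 and 3. With scaling by library size alone 7 of the 12 were still called.

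**Figure D5:**
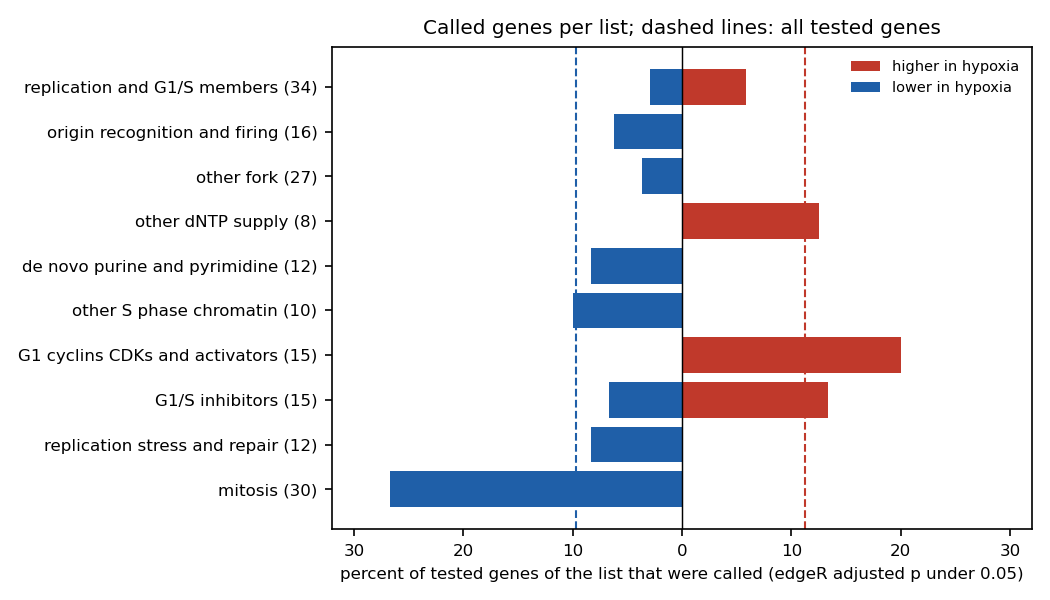
Percent of the tested genes of each list (number in parentheses) called higher (red, to the right) or lower (blue, to the left) in hypoxia, with dashed lines at 11.2% and 9.72% for all tested genes. The replication and G1/S genes lie inside both lines, and the mitosis list reaches 26.7% on the lower side.

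Genes that act later in the cycle gave a different count. Of 30 mitosis genes 8 were called lower (26.7%, against 9.72% of tested genes) and 0 higher with edgeR. At an unadjusted p under 0.05, 13 were lower and 0 higher, where at least the 9.72% of all tested genes called after adjustment were lower. None of the 30 was called higher with DESeq2 or limma-voom. Their median log2 fold change was -0.18. The 4 with the smallest p were Knl1 and Bub1b, of the kinetochore and its checkpoint, Cenpe, a kinetochore motor, and Cdca3, with log2 fold changes of -0.38, -0.36, -0.44 and -0.33 (SE 0.07, 0.07, 0.09 and 0.08). With the replicate block 18 were lower, with scaling by library size alone 3, and 3 when hypoxia replicate 2 or 3 or normoxia replicate 2 was left out. The proliferation marker Mki67 stood at 540, 675 and 616 CPM in hypoxia and at 521, 737 and 690 CPM in normoxia (log2 fold change -0.09, SE 0.13, edgeR's adjusted p = 0.69), and Top2a had a log2 fold change of -0.24 with SE 0.09 (edgeR's adjusted p = 0.098, and 0.0035 with the replicate block). Summed over the 30 genes, the level was 4687, 4913 and 4513 CPM in hypoxia and 5201, 5582 and 5124 CPM in normoxia. These sums did not overlap between the conditions, whereas those of the replication genes did, and normoxia replicate 3 was the highest normoxia library in 2 of the 30. Whether the lists differ was not tested.

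The labelled cell type was checked against its markers. Each of the 8 NK cell markers was detected, with a summed level of 5959 to 6995 CPM in hypoxia and 7015 to 8442 CPM in normoxia. Of these the transcription factor gene Eomes was called lower. With the replicate block 5 of the 8 were called lower and 2 higher, where 39.2% of all tested genes were called. The T cell markers summed to 164 to 209 CPM in hypoxia and 110 to 129 CPM in normoxia, with Cd3d, Cd3g and Cd4 of the 7 called higher. Cd3e, Cd8a, Cd8b1 and Trac were not called, though Cd8b1 was called higher with the replicate block. The basophil and mast cell markers summed to 76.0 to 89.6 and 19.1 to 27.1 CPM, nearly all of it Mcpt8, which was called higher together with Cpa3, while Fcer1a and Ms4a2 had at most 1 count per library. Of the B cell genes Cd79b was called higher (3.62-fold), and Cd79a and Ms4a1 were under 0.2 CPM in every library. Erythroid markers summed to at most 0.14 CPM. Of the 6 myeloid markers 4 were called higher, and Itgax, which NK cells also express, made up almost all of the 313 to 354 CPM in hypoxia and 166 to 190 CPM in normoxia. The others called were low and found almost only in hypoxia. Lyz2 had 0.193 to 0.381 CPM in hypoxia and 0 in normoxia. S100a8 had 0.175 to 0.658 CPM and S100a9 0.228 to 0.693 CPM in hypoxia, and each at most 0.019 CPM in normoxia. Csf1r was not called, and Adgre1 had too few counts to be tested. The part of other cells in the results on Ccne2, E2f1, Tyms and the other genes was not tested. Total estimated counts ran from 55104810 to 55794698 per library, so that 1 count was worth about 0.018 CPM, and every member had at least 14.9 CPM in each library. The precision of the comparison was thus set by the spread between libraries, a biological coefficient of variation of 10.9% over all tested genes and 5.64% with the replicate block.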

How the data were processed

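RNA of 6 libraries was quantified by the submitters with kallisto 0.4.6 after trimming with Trim Galore 0.6.4, on GRCm39, per the submitters' processing notes, which also name edgeR 3.17. The deposited estimated counts per gene (69.5% whole within 1e-06) were rounded here. The authors' deposited CPM column holds log2 CPM and equals edgeR's log2 CPM with a prior count of 2 within 4e-07. It was not tested. The annotation release is not given in the sources used here. Symbols came from a GENCODE M21 table for 52029 of 56953 genes, and 0.32 to 0.40% of counts lay in genes without one.

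Genes were kept by filterByExpr (minimum count 10, minimum total 15), scaled by TMM and tested with the quasi-likelihood test of edgeR 4.0.16 in R 4.3.3, with Benjamini-Hochberg adjustment over all 15591 genes and a threshold of 0.05. Alternatives used DESeq2 1.42.0, limma 3.58.1 (voom), other scalings and filters, a replicate block and fewer libraries. Same-numbered libraries deviated together (r = 0.47, 0.33 and 0.30, each above 0.1), so the numbers were taken to pair the libraries. Hypoxia 2 with normoxia 3 also lay above 0.1 (r = 0.12), and the other unmatched pairs ran from -0.35 to -0.01. Deviations were taken from the mean of each group, so these values are not independent. The labels do not state this pairing, which was read from the same data that the block then tested. Members and lists were chosen with earlier results of these data known. Besides the members, the text names up to 4 called genes of each further list by smallest p, its most abundant gene, and Mki67, Cdkn1a, Cdkn1b, Ccnd2, Ccnd3, Cdk4, Cdk6, Rb1 and Myc whatever their values. Intervals are for single genes.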

Additional observations from a re-analysis of the deposited data

How the results depend on the processing

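With the replicate block, 2988 genes of all tested were higher and 3120 lower, 5 and 3 of the members, 21 and 19 of the further lists, and 18 mitosis genes were lower. With scaling by library size alone, 998 of all genes were lower, 0 members were lower (Tyms had an edgeR adjusted p of 0.10), 12 genes of the further lists were higher and 1 lower, and 3 mitosis genes were lower. Members called lower numbered 3 without a filter on low counts, 3 with the DESeq2 Wald test and 3 without both replicate 1 libraries. Leaving out 1 library at a time gave 1146 to 1980 higher and 804 to 1636 lower genes in all, 2 to 6 higher and 0 to 2 lower members, 1 to 13 higher and 1 to 12 lower genes of the further lists, and 3 to 9 lower mitosis genes. The median log2 fold change of the members then ran from -0.06 to 0.14. None of the called genes named from the members and the further lists changed sign under the alternatives in which it was tested, and the causes of the changed counts were not tested. Cdkn1c was not tested under the stricter filter. With 3 libraries per group, 1 library of either condition can decide a call, and depth limits only genes of a few counts such as Cdkn1c.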
